A study of Mus musculus with 25 samples.

Results

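Adult mice with both copies of the cancer-derived NRF2 mutation L30F in the squamous cells of the esophagus were compared with mice carrying 1 mutant copy, so that the 2 groups differed in the second mutant allele. The comparison used 8 of the 25 libraries of the study: 4 from heterozygotes (NRF2L30F/+::K5CreERT2) and 4 from homozygotes (NRF2L30F/L30F::K5CreERT2), chosen by genotype label. The knock-in changes leucine to phenylalanine at codon 30, in the DLGex motif of NRF2, and is switched on by CreERT2, a tamoxifen-inducible recombinase under the promoter of keratin 5, a gene of squamous cells. All adults were 6 to 9 weeks old and were sampled 1 week after tamoxifen at 100 µg per g body weight. Total RNA of the whole esophagus was sequenced, so muscle, nerve, vessels and connective tissue were read together with the recombined epithelium. Wild-Type mice (4 libraries) and KEAP1flox/flox::K5CreERT2 mice (4 libraries, here called KEAP1 loss), given the same tamoxifen, stand beside the 2 groups. Pups 7 to 10 days old with constitutive K5Cre were a separate experiment, of which 3 homozygote (NRF2L30F/L30F::K5Cre) and 3 Wild-Type libraries are used. In bulk tissue, fewer cells of a type and less RNA per cell cannot be told apart. Nothing in the labels ties a library to its own animal, and the p-values therefore reflect variation from library to library, which may be technical.

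NRF2 (gene Nfe2l2) is a transcription factor that turns on genes for glutathione synthesis, detoxification and the export of conjugated toxins. KEAP1 binds NRF2 through the DLGex and ETGE motifs and hands it to a CUL3 ubiquitin ligase for degradation, and cancer mutations cluster in those motifs. On DNA, NRF2 pairs with small MAF proteins on the antioxidant response element, whose core is TGACNNNGC. The esophagus is lined by a squamous epithelium with a dividing basal layer (keratins 5, 14 and 15), suprabasal layers (keratins 4 and 13) and, in mice, a cornified surface. Keratins 6, 16 and 17 are made by squamous cells under stress or during wound repair.

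Promoter sequence is shown for genes from the 3 groups that the results turn on: NRF2 targets, cell cycle genes and small proline-rich proteins of the cornified envelope. The windows run from 250 bases before to 50 after the gene start in RefSeq (GRCm38.p6, while the expression files use GRCm39), and 12778 of the 19790 tested genes with a unique symbol have one. Both strands were searched for TGACNNNGC, for TTTGAA (the cell cycle homology region), for CCAAT (the NF-Y box) and for TGANTCA (the AP-1 site). Of the windows that hold TGANTCA, 5.81% have the same bases in a TGACNNNGC match. Capitals mark only the motif or motifs named before each set of lines, on either strand, and each line reads 5′ to 3′ along the strand of the gene. The antioxidant core is shown in Gclm (chr3:122245387-122245467, plus strand), Prdx1 (chr4:116685429-116685509, plus strand) and Gsta3 (chr1:21240425-21240505, plus strand).
Gclm: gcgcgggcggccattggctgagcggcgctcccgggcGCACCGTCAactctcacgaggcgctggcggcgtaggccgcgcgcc
Prdx1: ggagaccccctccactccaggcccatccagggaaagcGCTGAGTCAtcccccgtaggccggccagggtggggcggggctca
Gsta3: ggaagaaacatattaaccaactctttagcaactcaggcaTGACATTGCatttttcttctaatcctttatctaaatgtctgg

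TTTGAA and CCAAT are marked in Cdk1 (chr10:69352913-69353012, minus strand), Top2a (chr11:99024190-99024299, minus strand) and Mki67 (chr7:135716459-135716579, minus strand), whose products drive or mark cell division.
Cdk1: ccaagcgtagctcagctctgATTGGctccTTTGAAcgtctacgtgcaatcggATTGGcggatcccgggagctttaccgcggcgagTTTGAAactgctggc
Top2a: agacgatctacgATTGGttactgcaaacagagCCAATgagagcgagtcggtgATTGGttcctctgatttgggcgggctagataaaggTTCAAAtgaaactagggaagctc
Mki67: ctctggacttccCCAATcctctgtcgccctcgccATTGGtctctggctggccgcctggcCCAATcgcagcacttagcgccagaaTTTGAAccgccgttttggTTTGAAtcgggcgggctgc

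TGANTCA is marked in the neighbouring genes Sprr2f (chr3:92364967-92365027, plus strand), Sprr2e (chr3:92351923-92351983, plus strand) and Sprr2h (chr3:92385465-92385525, plus strand).
Sprr2f: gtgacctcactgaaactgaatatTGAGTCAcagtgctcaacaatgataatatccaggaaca
Sprr2e: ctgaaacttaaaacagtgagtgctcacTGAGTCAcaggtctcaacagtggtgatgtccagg
Sprr2h: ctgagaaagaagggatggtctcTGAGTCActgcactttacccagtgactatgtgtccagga

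The libraries differed in ways that move with the groups. Reads over the listed genes came to 12.8 to 16.9 M in heterozygotes and 10.9 to 11.6 M in homozygotes, with no overlap, against 27.5 to 32.3 M in wild type (M, 1e6 reads). Heterozygote library 3 stood apart in markers of airway, fat and blood. Homozygote library 4 was the highest homozygote in the fat and blood lists and stood apart on the second principal component (15% of the variance). The first component (29.4%) separated the 2 genotypes. Correlations of log2 values across genes were 0.96 within heterozygotes, 0.949 to 0.966 within homozygotes and 0.94 to 0.958 between them. The 12 defining squamous genes, among them Krt5, Krt13, Krt14 and Trp63, had a mean log2 level of 13.8 to 14.3 in heterozygotes and 14.1 to 14.2 in homozygotes, so both groups carry the labelled tissue.

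The second mutant allele came with 3249 called genes of 19857 tested (16.4%), 1602 higher in homozygotes (8.07%) and 1647 lower (8.29%). A gene is called where limma's p-value, adjusted by Benjamini-Hochberg over all genes tested, is under 0.05. Values are normalised counts, and differences are homozygotes minus heterozygotes on the log2(value + 1) scale, which understates changes of low genes. Most called changes were modest, with a median size of 0.63, and 515 genes were at least 2-fold higher and 392 at least 2-fold lower. Over all genes tested the median difference was -0.01. In 3201 genes (16.1%) the 2 groups did not overlap, 1504 with all homozygotes above (7.57%) and 1697 with all below (8.55%). Without homozygote library 1 the number called was 2134, with 1025 higher, and without heterozygote library 3 the lower genes numbered 1067. With the 8 libraries fitted alone 1544 genes were called.

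**Figure D1:**
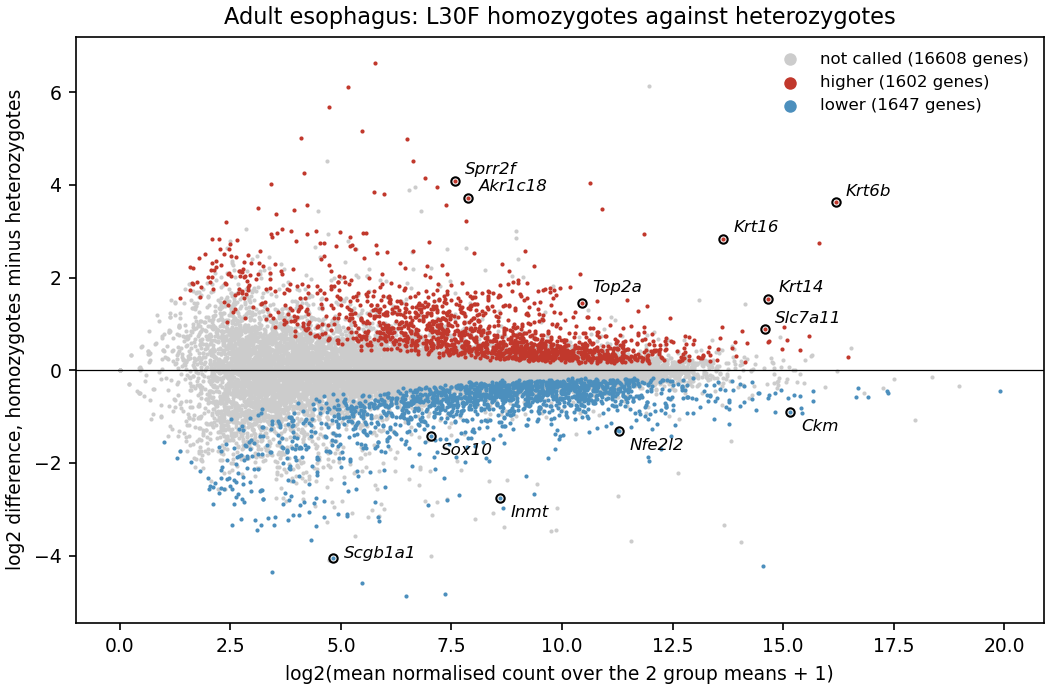
Each point is 1 of the 19857 genes tested, with the log2 of the mean normalised count on the horizontal axis and the log2 difference, homozygotes minus heterozygotes, on the vertical axis. The 1602 genes called higher (red) and 1647 called lower (blue) lie on both sides of 0, Krt6b stands at 3.63 and Nfe2l2 at -1.31.

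Nfe2l2 itself was lower in homozygotes. Heterozygote libraries 1 to 4 had 4117, 3307, 3542 and 3293 normalised counts and homozygote libraries 1 to 4 had 1806, 1618, 1204.5 and 1199, with wild type at 5662 on average. Every homozygote library was below every heterozygote library. The difference was -1.31 (SE 0.12, n = 4 and 4, limma adjusted p = 1.08e-05), a 2.48-fold lower level, and heterozygotes were -0.67 from wild type, a comparison that shares the heterozygote libraries. Gene-level counts do not show the substituted codon, so they check neither the allele nor its share of the transcripts. Keap1 was not called, with a difference of 0.13 (SE 0.07, adjusted p = 0.239). Of the 12 measured genes of NRF2, KEAP1 and partners, 2 were called lower and none higher, with a median of -0.08. The other one lower was Cul3, the ligase scaffold, at -0.25 (adjusted p = 0.0166), a call that ended with the 8 libraries fitted alone (adjusted p = 0.109).

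Genes for taking up cystine and making glutathione rose with the second allele. Slc7a11, the cystine transporter, had 19046, 15177, 15968 and 18569 normalised counts in heterozygotes and 37087, 32477, 26627 and 31554 in homozygotes. Gclm, the modifier subunit of the rate-limiting enzyme of glutathione synthesis, had 2280, 2525, 2538 and 2758 against 5589, 4386, 4173 and 5269. Prdx1, a peroxide-reducing peroxiredoxin, had 7342, 9030, 8301 and 9426 against 18484, 15419, 12158 and 19797. In these 3 genes every homozygote library was above every heterozygote library. The rises were 0.89 for Slc7a11 (SE 0.12, adjusted p = 0.000239), 0.94 for Gclm (SE 0.10, adjusted p = 3.05e-05) and 0.93 for Prdx1 (SE 0.13, adjusted p = 0.000266). Against wild type, heterozygotes already stood 3.83 higher for Slc7a11, 1.39 for Gclm and 1.39 for Prdx1. Gclc, the catalytic subunit of the same enzyme as Gclm, rose by 0.84 (SE 0.15, adjusted p = 0.002), and Slc3a2, the partner chain of the cystine transporter, by 0.66 (SE 0.08, adjusted p = 9.16e-05).

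Of the 16 measured genes of glutathione and thioredoxin, 10 were called higher and 1 lower, with a median of 0.56. The number higher lay between 7 and 10 under the alternatives tried, apart from a 2-fold threshold, which no rise of the list reached (largest 0.95). Srxn1, which repairs oxidised peroxiredoxins, rose by 0.65 (adjusted p = 0.0462), and this call ended when any 1 of 11 libraries was left out, with an adjusted p of up to 0.123 (without homozygote library 1). Thioredoxin reductase Txnrd1 was not called (0.16, adjusted p = 0.526). The 1 lower gene was Chac1, which breaks down glutathione, at -0.83 (adjusted p = 0.0224). Its call ended without heterozygote library 1, 3 or 4 or homozygote library 1 or 3, with an adjusted p of up to 0.0689. In the promoters, 5 of the 13 list genes with a window (38.5%) hold TGACNNNGC, against 16.4% of all tested genes with a window, 16.5% of those called higher and 16.8% of those called lower. The core is in 4 of 19 windows of the glutathione S-transferases (21.1%), in 1 of 23 of the quinone, carbonyl and aldehyde list (4.35%), in 2 of 5 of the exporters and in 3 of 9 of the NADPH and pentose phosphate enzymes (33.3%). Among members called higher, it is in 3 of 8 windows of glutathione and thioredoxin (37.5%) and 1 of 8 of the S-transferases (12.5%). For the other 3 lists these counts are 1 of 7 (14.3%), 1 of 1 and 1 of 2, in the same order.

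**Figure D2:**
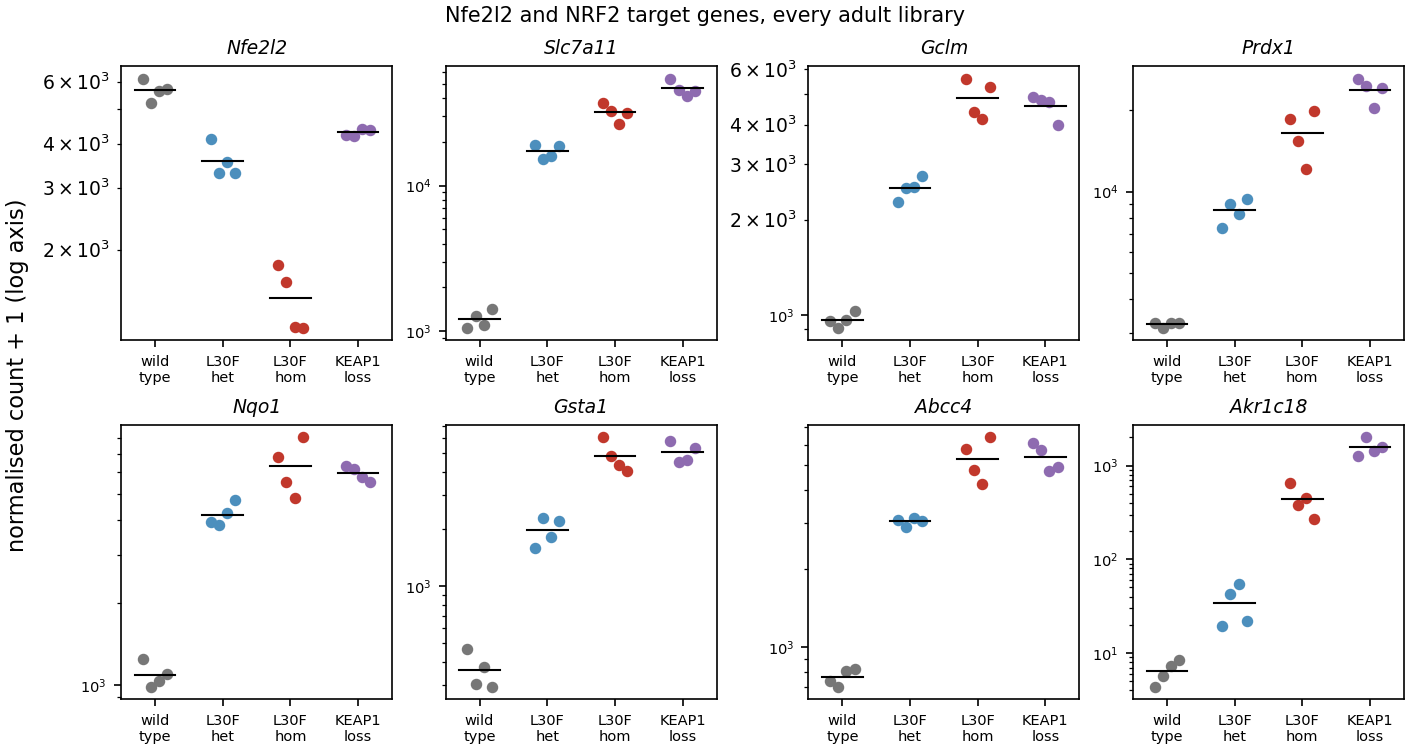
Normalised count + 1 (log axis) of Nfe2l2 and 7 NRF2 target genes in every adult library, by genotype, with the bar at the group mean. Nfe2l2 steps down from wild type to heterozygotes (3293 to 4117) to homozygotes (1199 to 1806), while in the 7 targets every homozygote library is above every heterozygote library.

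Some conjugation and carbonyl-reducing enzymes rose, and most members of their lists were not called. Gsta1, an alpha-class glutathione S-transferase, had 1580, 2283, 1818 and 2189 normalised counts in heterozygotes and 6061, 4827, 4324 and 4034 in homozygotes. Akr1c18, an aldo-keto reductase that also inactivates progesterone, had 18.3, 41.6, 53.3 and 20.8 against 648, 381, 451 and 265. Both genes separated the groups without overlap. The rise was 1.29 for Gsta1 (SE 0.16, adjusted p = 0.000157) and 3.73 for Akr1c18 (SE 0.33, adjusted p = 1.19e-05), a 13.3-fold higher level and 1 of the 12 largest rises. Nqo1, the quinone reductase used as a standard NRF2 readout, rose less, by 0.56 (SE 0.13, adjusted p = 0.00781), from 3863 to 4760 in heterozygotes to 4833 to 8055 in homozygotes. Akr1c and Gsta genes have near-identical relatives, so reads may be split between family members and single-gene values are uncertain.

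Of 21 measured glutathione S-transferases 9 were called higher and 3 lower (median 0.15). Gsta3 (0.92) and Gsto1 (0.94) were among the higher ones. Gstt1, of the theta class, fell by 1.02 (adjusted p = 0.00313), and the other lower calls were Gstm5 and Mgst3. Of the 3 lower calls 1 was left without heterozygote library 3 or 4 or homozygote library 1 or 3. Of 30 measured genes of quinone, carbonyl and aldehyde detoxification, 7 were called higher and 2 lower, with a median of 0.10. Akr1c19 (1.91) and Akr1a1 (0.29) were among those higher, the call of Akr1a1 ending with the 8 libraries fitted alone (adjusted p = 0.057), where 3 of the 7 were left. Nqo2, a quinone reductase that does not use NADPH, fell by 0.53 (adjusted p = 0.00447), and Aldh1a1 was the other lower call. Without homozygote library 4 the lower genes of this list numbered 6.

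Exporters that carry conjugates out of the cell also changed. Abcc4, a multidrug resistance protein, had 3073, 2890, 3134 and 3050 normalised counts in heterozygotes and 5772, 4812, 4248 and 6395 in homozygotes, a rise of 0.79 (SE 0.11, adjusted p = 0.000378). No library of one group reached the other. Abcc1 (0.54, adjusted p = 0.000952) and Abcc3 (0.77, adjusted p = 0.00139) also rose, so 3 of the 7 measured exporters were higher, and Abcg2, an exporter of urate and many drugs, fell by 0.53 (adjusted p = 0.0115). These 4 calls held under every alternative tried, apart from a 2-fold threshold. Of 9 measured enzymes of NADPH production and the pentose phosphate pathway 2 were called higher: Taldo1 of that pathway (0.45, adjusted p = 0.00524) and G6pdx, its entry enzyme (0.43, adjusted p = 0.0207). The call of G6pdx ended without homozygote library 1 (adjusted p = 0.0566) or 4 (adjusted p = 0.0543).

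Heme oxygenase Hmox1 was not called (0.31, adjusted p = 0.427). Of 8 genes of heme and iron handling 2 were called higher (Blvrb and Ftl1) and 1 lower (Fech). The higher count was 1 without wild type library 1 or 2, any heterozygote or KEAP1 loss library or homozygote library 1 or 4, and none was lower without heterozygote library 3 or 4 or homozygote library 1, 2 or 3. Biliverdin reductase Blvrb rose by 0.57 (adjusted p = 0.011), a call that ended with the 8 libraries fitted alone (adjusted p = 0.0513). Of 31 proteasome subunits 4 were called higher (Psma5, Psma7, Psmd3 and Psmd11, median 0.10), beside 8.07% of all genes tested. The subunits called higher numbered 2 without heterozygote library 2, 3 or 4 or homozygote library 1 or 4. They also numbered 2 without wild type library 1, 2 or 3 or KEAP1 loss library 2 or 4. Psmd3 (0.32) and Psma7 (0.33) kept their calls under every alternative tried, apart from a 2-fold threshold. None of the 6 measured targets of the aryl hydrocarbon receptor was called in either direction.

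Stress keratins were among the largest rises. Krt6b had 7524, 21009, 6535 and 12539 normalised counts in heterozygotes and 151532, 146614, 168965 and 80608 in homozygotes. Krt16 had 6920, 2182, 2394 and 1907 against 28647, 20831, 27811 and 10937, and Krt6a had 35693, 14370, 8038 and 10444 against 112795, 106622, 97725 and 73183. Homozygote library 4 was the lowest of its group in all 3 genes and still above every heterozygote library. The rises were 3.63 for Krt6b (SE 0.38, adjusted p = 6.36e-05, 12.4-fold), 2.84 for Krt16 (SE 0.41, adjusted p = 0.000691, 7.16-fold) and 2.74 for Krt6a (SE 0.43, adjusted p = 0.00108, 6.69-fold). Krt6a and Krt6b are near-identical neighbours, so the split between them is uncertain. Krt17 was not called: heterozygotes ranged from 20.8 to 2627 and homozygotes from 338 to 1229 (1.81, SE 1.15, adjusted p = 0.312). Heterozygotes stood 4.24 above wild type for Krt6b and 4.67 for Krt16, and homozygotes 7.87 and 7.51.

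Basal keratins moved apart. Krt14 had 22943, 14472, 10006 and 7226 normalised counts in heterozygotes and 51400, 33613, 44597 and 22909 in homozygotes, and it rose by 1.55 (SE 0.29, adjusted p = 0.00273), although homozygote library 4 lay just below heterozygote library 1. Krt15 had 10460, 8993, 11051 and 10661 against 4307, 5735, 4865 and 7340, with no overlap. It fell by 0.91 (SE 0.25, adjusted p = 0.025), a call that ended without heterozygote library 3 (adjusted p = 0.0613) or 4 (0.0516) or homozygote library 1 (0.0763) or 3 (0.0613). Of 16 measured basal genes 5 were called higher (Krt14, Krt5, Itgb4, Pdpn and Trp63) and 2 lower (Krt15 and Dst). Itgb4, a hemidesmosome integrin, rose by 0.43 (adjusted p = 0.00888). The higher genes numbered 2 without heterozygote library 3 or homozygote library 1, and 3 without heterozygote library 4 or homozygote library 3, and when any 1 of these 4 libraries was left out none was lower.

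The abundant suprabasal keratins were not called. Krt4 ranged from 246628 to 405962 in heterozygotes and from 131669 to 239352 in homozygotes, without overlap (-1.07, SE 0.40, adjusted p = 0.0836), and Krt13 differed by -0.14 (adjusted p = 0.537). The difference of Krt4 passed the threshold with the 8 libraries fitted alone and without KEAP1 loss library 2 or 3. Of 20 measured suprabasal genes 1 was called higher, Fabp5, a fatty acid binding protein (0.65, adjusted p = 0.00151), and 1 lower, Calml3, a calmodulin-like protein of epithelia. Calml3 had 6668, 4425, 7464 and 6605 normalised counts in heterozygotes and 3215, 2854, 3534 and 4123 in homozygotes. All homozygotes were below all heterozygotes, and it fell by 0.86 (SE 0.16, adjusted p = 0.00221).

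**Figure D3:**
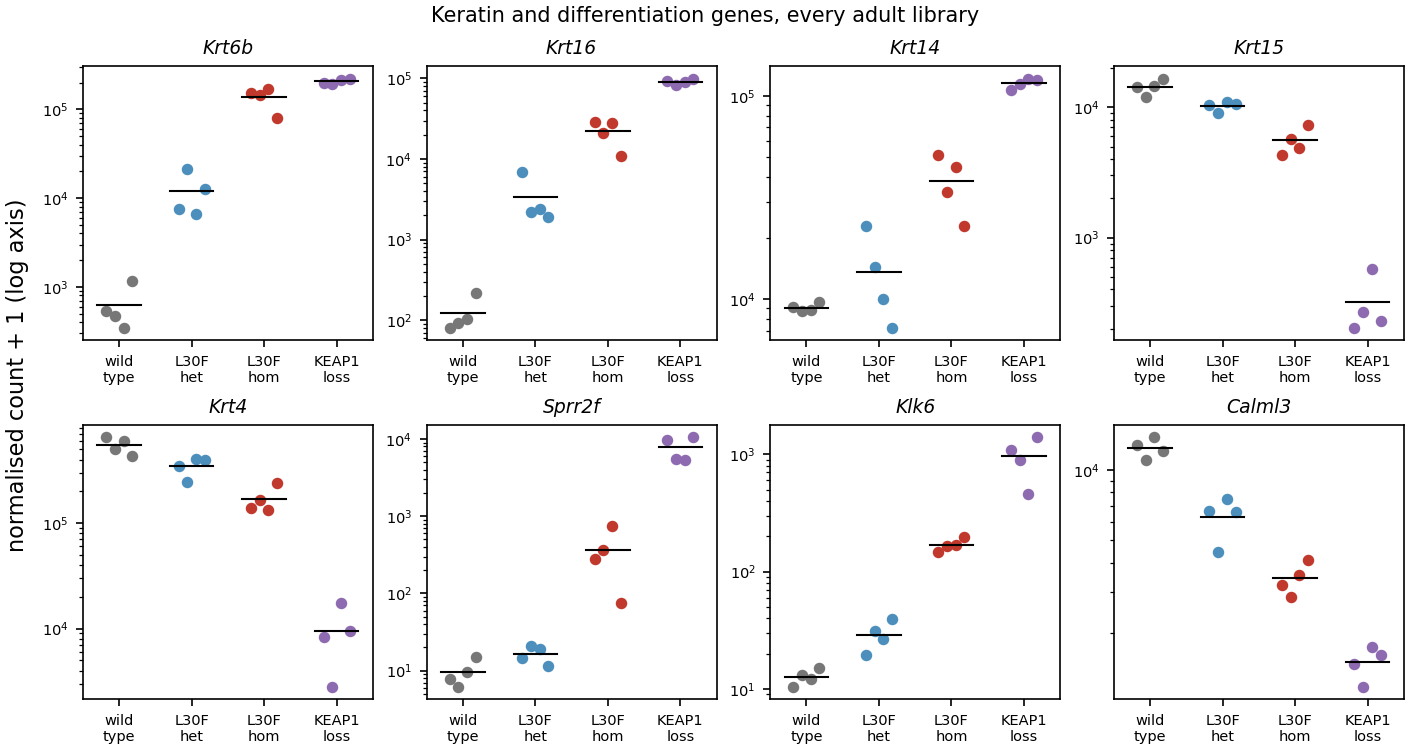
Normalised count + 1 (log axis) of 8 keratin and differentiation genes in every adult library, by genotype, with the bar at the group mean. The homozygotes lie between heterozygotes and KEAP1 loss in the group means of all 8 genes, and in Krt14 homozygote library 4 (22909) meets heterozygote library 1 (22943).

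Small proline-rich proteins, cross-linked into the cornified envelope, gave some of the largest rises from low levels. Sprr2f had 13.4, 20.1, 18.2 and 10.4 normalised counts in heterozygotes and 276, 366, 741 and 73.2 in homozygotes. Sprr2h had 32.9, 58.8, 64.2 and 19.3 against 347, 451, 645 and 202. Sprr2e had 2.44, 10.0, 4.84 and 0 against 150, 128, 388 and 29.6. Homozygote library 4 was again the lowest of its group and above all heterozygotes. Sprr2f rose by 4.09 (SE 0.53, adjusted p = 0.000239) and Sprr2h by 3.23 (SE 0.44, adjusted p = 0.000383). Sprr2e, whose reads are few in heterozygotes, was called with adjusted p = 0.000595 and was not called by limma-voom (adjusted p = 0.0566). The Sprr2 genes are near-identical copies, so the assignment of reads among them is uncertain.

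The cornified envelope list as a whole did not rise. Of 50 measured genes 9 were called higher and 1 lower, and the median was -0.22. The median was -0.07 without homozygote library 3 and -0.36 without heterozygote library 2. The higher genes numbered 5 without homozygote library 1, 4 with limma-voom or with striated muscle level as a covariate, and 3 with the 8 libraries fitted alone. Called lower was Ppl, periplakin (-0.50, adjusted p = 0.0414), a call that ended when any 1 of 10 libraries was left out, with an adjusted p of up to 0.107 (without homozygote library 3). Without heterozygote library 2 or homozygote library 4 the lower genes numbered 5. TGANTCA is in 6 of the 9 windows of the higher genes (66.7%) and in 15 of 45 windows of the list (33.3%), against 7.32% of all tested genes with a window. Sprr2f, Sprr2e and Sprr2h are near-identical copies that each hold TGAGTCA, so these windows are not independent of one another. No TGANTCA stands in the windows of the cell cycle list.

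Among 17 measured kallikreins and their inhibitors, 2 were called higher, beside 8.07% of all genes tested. Klk6, a serine protease of squamous epithelia, had 18.3, 30.1, 25.4 and 38.5 normalised counts in heterozygotes and 147, 164, 167 and 197 in homozygotes. The groups were far apart, and the rise was 2.58 (SE 0.28, adjusted p = 4.78e-05). Spink5, the inhibitor of epidermal kallikreins, rose by 0.63 (adjusted p = 0.000762). The median of this list was 0.10. Against wild type its median was -0.32 in heterozygotes, with 2 genes called higher and 6 lower, and -0.48 in homozygotes. Of 23 measured epithelial alarmins and cytokines 6 were called higher and 1 lower. Defb4, a beta-defensin, fell by 0.88 (adjusted p = 0.00454), from 4310 to 6717 in heterozygotes to 2227 to 3961 in homozygotes. Il1b, the inflammatory cytokine, was at 3.66 to 11.5 against 26.5 to 48.9 (5.29-fold, adjusted p = 0.0147), a call that ended with limma-voom (adjusted p = 0.403) and with striated muscle level as a covariate (adjusted p = 0.056). The higher genes of that list numbered 3 with limma-voom, 2 with the 8 libraries fitted alone and 1 with the covariate.

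Cell cycle genes were higher in homozygotes across the list. Mki67, the proliferation marker, had 1070, 2055, 1175 and 1694 normalised counts in heterozygotes and 4764, 3422, 4783 and 3672 in homozygotes. Top2a, the topoisomerase of dividing cells, had 609, 964, 586 and 837 against 2513, 1748, 1958 and 1904, and Cdk1, the mitotic kinase, 70.7, 126, 73.9 and 88.9 against 293, 202, 229 and 244. Every homozygote library was above every heterozygote library. Mki67 rose by 1.51 (SE 0.28, adjusted p = 0.0029), Top2a by 1.46 (SE 0.23, adjusted p = 0.000934) and Cdk1 by 1.45 (SE 0.25, adjusted p = 0.00172). Bub1 of the spindle checkpoint (1.67, adjusted p = 0.000861), Foxm1, a transcription factor of mitotic genes (1.36, adjusted p = 0.00139), and Rrm1, a ribonucleotide reductase subunit (0.66, adjusted p = 0.000387), rose too. Of 30 measured genes 25 were called higher and none lower, with a median of 1.21. All homozygotes were above all heterozygotes in 24 of the 30. The count lay between 19 and 25 under the alternatives tried, apart from a 2-fold threshold. Ccnd1, Mcm3, Mcm4, Pcna and Tyms were not called, and Ccnd1, the G1 cyclin, differed by -0.37 (adjusted p = 0.348).

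These genes did not step upward from wild type to heterozygote to homozygote. Mean log2 levels of the list were 7.87 to 8.57 in wild type, 7.68 to 8.12 in heterozygotes, 8.69 to 9.10 in homozygotes and 9.06 to 9.35 with KEAP1 loss. Wild type library 4 (7.87) lay among the heterozygotes, and the other wild type libraries between the 2 L30F groups. The list's median difference from wild type was -0.82 in heterozygotes, with 1 gene called higher and 14 lower, and 0.52 in homozygotes, and these comparisons share the wild type libraries. Mki67 averaged 3275 in wild type. Of the 22 higher genes with a promoter window, 11 (50%) hold TTTGAA and 18 (81.8%) hold CCAAT, against 15.6% and 42.2% of all tested genes with a window.

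**Figure D4:**
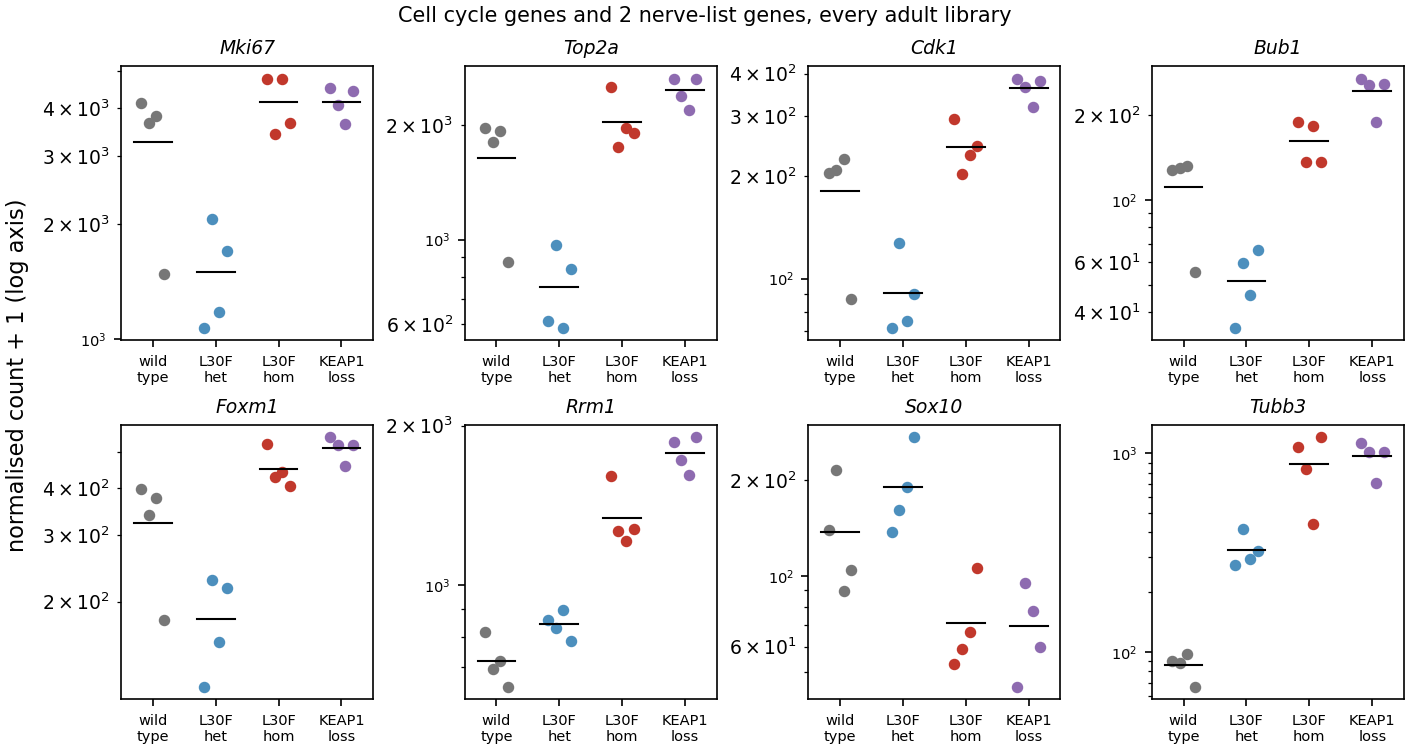
Normalised count + 1 (log axis) of 6 cell cycle genes and of the nerve-list genes Sox10 and Tubb3 in every adult library, by genotype, with the bar at the group mean. In all 6 cell cycle genes the homozygotes stand above the heterozygotes, and wild type library 4 (1482 for Mki67) lies apart from the other wild type libraries in Mki67, Top2a, Cdk1, Bub1 and Foxm1.

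Some genes of glucose uptake and glycolysis were higher in homozygotes, and some of oxidative phosphorylation were lower. Slc2a1, the glucose transporter GLUT1, had 1756, 1109, 1061 and 1246 normalised counts in heterozygotes and 2583, 1816, 2632 and 2083 in homozygotes, a rise of 0.83 (SE 0.18, adjusted p = 0.00733) with no overlap. Pfkp (0.56), Pgam1 (0.47) and Hk1 (0.39), enzymes of glycolysis, rose as well, so 4 of 15 measured genes of glycolysis were called higher, and 2 were called lower (Gpi1 and Pfkfb3), the median being 0.01. Neither was lower without heterozygote library 3, and 1 was without heterozygote library 1 or any 1 homozygote library. Glycolysis had a median difference from wild type of -0.05 in heterozygotes, with 1 gene called higher and 5 lower, and -0.14 in homozygotes. Of 20 measured genes of oxidative phosphorylation none was called higher and 8 were called lower, with a median of -0.17. Cyc1, of complex III, fell by 0.30 and Ndufa1, of complex I, by 0.35. The count was 5 without heterozygote library 1 or 3 or homozygote library 1 or 3, 3 with striated muscle level as a covariate and 2 with the 8 libraries fitted alone. The list's median difference from wild type was 0.25 in heterozygotes, with 7 genes called higher and 0 lower, and 0.05 in homozygotes. Its summed level was 53298 to 57175 in wild type, 60129 to 70198 in heterozygotes and 52786 to 60387 in homozygotes.

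Genes of antigen presentation were higher in part. H2-DMa, which loads peptides on class II molecules, had 126, 163, 140 and 124 normalised counts in heterozygotes and 289, 289, 454 and 164 in homozygotes, a rise of 1.02 (SE 0.24, adjusted p = 0.00862). Homozygote library 4 came within 1 count of the highest heterozygote. Of 17 measured genes 7 were called higher, with a median of 0.49, but 1 was left without heterozygote library 1, 3 or 4 or homozygote library 1 or 3, 2 without homozygote library 2, and 4 without wild type library 2 or 3. Cd74, the invariant chain, rose by 1.13 (adjusted p = 0.0323), a call that ended without heterozygote library 1, 3 or 4 or homozygote library 1, 2 or 3 (adjusted p of up to 0.0781). Ptprc, the pan-leukocyte antigen CD45, rose by 1.01 (adjusted p = 0.0154), a call that ended with the 8 libraries fitted alone (adjusted p = 0.0653). Cx3cr1, a receptor of monocytes, macrophages and dendritic cells, was at 9.75 to 54.5 against 87.2 to 478, a rise of 2.77 (adjusted p = 0.0043). Of 22 leukocyte markers 3 were called higher (Ptprc, Csf1r and Cd68) and 1 lower (Jchain), and the summed level of the list was 9200 to 12815 normalised counts in heterozygotes and 11695 to 22096 in homozygotes. Its part in these results was not tested. Of the 3 higher markers 1 was left without heterozygote library 3 or homozygote library 1 or 3, and the lower call ended when any 1 of 9 libraries was left out, heterozygote library 1 and homozygote library 1 among them.

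Some striated muscle genes were lower in homozygotes. Ckm, muscle creatine kinase, had 49269, 36987, 61012 and 44799 normalised counts in heterozygotes and 23409, 28040, 21002 and 29130 in homozygotes, with wild type at 33758 on average. It fell by 0.91 (SE 0.14, adjusted p = 0.000821), with no overlap. Atp2a1, the fast-muscle calcium pump, fell by 0.82 (adjusted p = 0.00142) and Mb, myoglobin, by 0.61 (adjusted p = 0.00712). Mylk4, a kinase of striated muscle, had 6148, 3122, 10079 and 6572 against 1675, 1972, 1041 and 1574 and fell by 1.97 (SE 0.32, adjusted p = 0.00138). Of 28 measured striated muscle markers 13 were called lower and 1, the embryonic myosin Myh3, higher, with a median of -0.40. The lower genes numbered 7 without heterozygote library 3 or homozygote library 1 or 3, and Myh3 lost its call without heterozygote library 3 or 4 or homozygote library 2, 3 or 4. The summed level of the list did not overlap between the groups, at 1861500 to 2491100 in heterozygotes and 1314500 to 1851600 in homozygotes. Wild type, at 1383500 to 1602800, lay within the homozygote range. With the muscle level as a covariate 2060 genes were called in all. Of 11 measured smooth muscle markers 1 was called lower (Lmod1) and none higher, with a median of 0.15, and the lower call ended without heterozygote library 1, 3 or 4 or homozygote library 1 and with striated muscle level as a covariate. The summed level of that list overlapped, at 52953 to 67094 in heterozygotes and 48096 to 67712 in homozygotes.

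Some genes of glia and nerve were lower in homozygotes, and Tubb3 was higher. Sox10, the transcription factor of Schwann and enteric glial cells, had 136, 160, 189 and 271 normalised counts in heterozygotes and 52.1, 58.0, 65.7 and 105 in homozygotes. The groups did not overlap, and it fell by 1.43 (SE 0.30, adjusted p = 0.00554). Of 13 measured markers 6 were called lower and 1 higher, and Nos1, made by inhibitory enteric neurons and also by muscle, fell by 0.79, a call that ended with the 8 libraries fitted alone (adjusted p = 0.0549). Tubb3, a tubulin used as a neuron marker, rose by 1.37 (SE 0.25, adjusted p = 0.00268), from 272, 416, 292 and 320 to 1076, 829, 439 and 1203. It averaged 84.5 in wild type and 967 with KEAP1 loss. The summed level of the list was 7940 to 11202 in heterozygotes, 5160 to 7037 in homozygotes and 6131 to 8256 in wild type.

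Some markers of fat, blood and airway were lower in homozygotes than in heterozygotes, and library by library they were uneven. Against wild type, none of the fat or blood markers was called higher in heterozygotes and 1 of the airway markers was. The median differences from wild type were 0.53 for fat, 0.30 for blood and 1.34 for airway in heterozygotes, and -1.29, -3.42 and -0.98 in homozygotes. Lpl, lipoprotein lipase, fell by 1.22 (adjusted p = 0.00145) and Plin4, a lipid droplet protein also found in muscle, by 0.92 (adjusted p = 0.00303), both without overlap. Adipoq, a hormone of fat cells, was at 126, 136, 438 and 114 against 11.0, 16.6, 7.64 and 146 (adjusted p = 0.0291), and its call ended without heterozygote library 3 (adjusted p = 0.083) or homozygote library 1, 2 or 3 (up to 0.0838). Of 10 fat markers 6 were called lower, and 2 when any 1 of those 4 libraries was left out. Hba-a1, alpha globin, was at 7190, 14452, 143696 and 12695 against 159, 310, 3778 and 8262, a call that ended when any 1 of 11 libraries was left out (adjusted p of up to 0.119). Of 7 red blood cell markers 3 were called lower, Hba-a1 and Slc4a1 among them, none without heterozygote library 3 or homozygote library 1 or 2, and 7 without homozygote library 4. Scgb1a1, the club cell secretoglobin of airways, was at 46.3, 61.6, 47.2 and 51.9 against 3.16, 4.97, 3.06 and 0 (adjusted p = 9.16e-05), while Muc5b, an airway mucin, was at 7465 in heterozygote library 3 and at 0 to 2.87 in the other 7. Of 8 airway and gland markers 2 were called lower (Scgb1a1 and Scgb3a1), and Muc5b, Bpifa1 and Scgb3a1 were at 0 in at least 1 homozygote library. The part of these cell types in the results was not tested. With heterozygote library 3 and homozygote library 4 both left out 2480 genes were called.

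**Figure D5:**
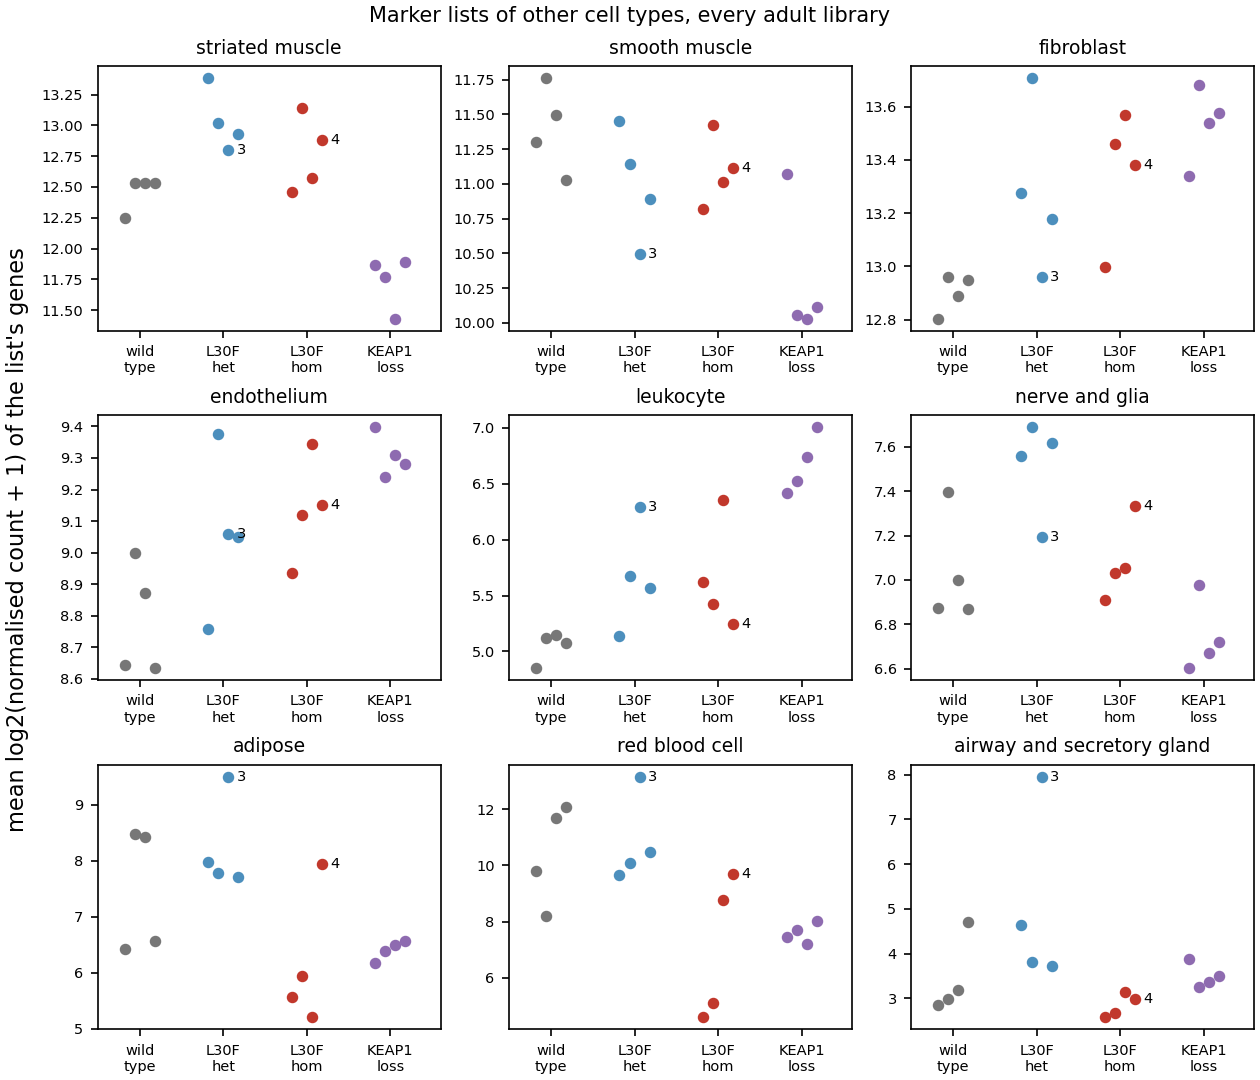
Mean log2(normalised count + 1) over 9 marker lists of other cell types in every adult library, by genotype, with heterozygote library 3 and homozygote library 4 numbered. Heterozygote library 3 is the highest of all in fat (9.50), blood (13.2) and airway (7.96), and homozygote library 4 is the highest homozygote in nerve, fat and blood.

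Outside the lists the largest falls included Inmt, an indolethylamine methyltransferase, at 620, 311, 1211 and 608 normalised counts in heterozygotes and 103, 84.6, 73.4 and 101 in homozygotes (-2.76, SE 0.34, adjusted p = 0.00017). Tmem45a2 had 223, 256, 298 and 292 against 58.4, 49.7, 39.7 and 66.3 (-2.31, SE 0.43, adjusted p = 0.00248), and Far2, a reductase that makes fatty alcohols, 258, 97.4, 286 and 261 against 53.6, 36.5, 26.0 and 92.4 (-2.13, SE 0.35, adjusted p = 0.0012). Neither group reached the other in these 3 genes. Wild type averaged 389 for Tmem45a2 and 333 for Far2, and KEAP1 loss 3.74 and 3.43. Pcdh9, a protocadherin, fell by 2.51 (adjusted p = 0.000934). Nox4, an oxidase that makes hydrogen peroxide, was at 98.7, 269, 139 and 136 in heterozygotes and at 0, 0, 33.6 and 19.2 in homozygotes (adjusted p = 0.00552), a call that ended with the 8 libraries fitted alone (adjusted p = 0.0513). Xist, the RNA of the inactive X chromosome, was at 20.6 to 77.1 in heterozygotes and 1.66 to 6.31 in homozygotes (adjusted p = 0.000692), with wild type at 5.02, and none of the other 4 measured sex-linked genes was called.

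Genes called between homozygotes and heterozygotes were set beside KEAP1 loss against wild type, which uses other libraries of the same fit. That comparison calls 9290 genes (46.8%), 24.1% higher and 22.7% lower. Of the 1602 genes higher in homozygotes, 1210 (75.5%) were higher with KEAP1 loss and 25 (1.56%) lower, and those 1210 are 25.3% of the genes higher there. Of the 1647 lower, 1125 (68.3%) were lower with KEAP1 loss and 34 (2.06%) higher. Their median differences with KEAP1 loss were 0.77 and -0.61. Krt6b, for which homozygotes averaged 7.87 above wild type, stood at 8.50 with KEAP1 loss, Sprr2f at 9.66 and Krt15 at -5.61. Of the 28 muscle markers 22 were lower with KEAP1 loss, Ckm at -1.98.

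Pup homozygotes against pup wild type, a separately normalised table with 8225 of 21007 genes called (39.2%, with 22.0% higher and 17.1% lower), was set beside them too. Of 1555 adult higher genes tested there, 583 (37.5%) were higher and 317 (20.4%) lower, and of 1605 adult lower genes 371 (23.1%) were lower and 247 (15.4%) higher. NRF2 targets rose in pups too, Slc7a11 by 10.29 and Nqo1 by 7.01. The cell cycle list went the other way in pups, with 26 of 30 genes called lower and none higher and a median of -0.82, and Mki67 at -1.11 (adjusted p = 0.00143). Nfe2l2 was not called in pups (0.31, adjusted p = 0.172). The contrast differs from the adult one, since pups have no heterozygotes, and the difference between ages was not tested.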

How the data were processed

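Total RNA of whole esophagus was sequenced from directional libraries, per the labels' protocols. The authors deposited log2 values in 1 table for each experiment. Salmon and the GRCm39 build are named, per the submitters' processing notes; no version or strand setting is stated there. A deposited value is log2(n + 4), with n the reads of a gene over the size factor of its library, and 100% of the values of 1000 reads or fewer came out as whole reads (tolerance 0.1). They were turned back into normalised counts, which are not scaled by gene length.

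limma 3.58.1, run in R 4.3.3 with statmod 1.5.0 and the trend and robust options, was fitted to log2(value + 1) over the 16 adult libraries together, without a replicate term. Genes reaching 1 in 4 or more libraries were tested (19857 of 19942), and pups were fitted apart with 3 or more libraries. Two-sided p-values were adjusted by Benjamini-Hochberg across the tested genes, with 0.05 as the threshold.

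The genotype comparison, genes and lists were chosen with earlier results of these data known. Named genes follow a rule: 11 fixed NRF2 and keratin genes, the 12 largest rises and falls among called genes with a mean of at least 50 and groups that do not overlap, and the list members with the smallest adjusted p. Not all genes reached are printed, and some are not reported here. Mki67, Cdk1, Ccnd1, Chac1, Krt4, Krt13, Krt17, Ppl, Myh3 and genes that only spell out a count were chosen after their values were seen. Alternatives were the offset, filter and scaling, limma-voom on recovered reads, thinning to equal depth, the 8 libraries fitted alone, a muscle covariate, a 2-fold threshold, a replicate block and each library left out in turn. Promoter windows come from RefSeq tables, and a motif match is a description of the letters only. Proteins are not used here.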

Additional observations from a re-analysis of the deposited data

Results flagged for a closer look

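Within each group of 4 libraries, the highest or lowest library was compared with the others by its gap to the nearest library over the range of the group and Dixon's critical value for 4 samples. Of 200 groups of named genes and lists, 7 passed (3.5%), and chance alone passes about 1 in 20. In heterozygote library 3 the highest values were Muc5b (7465 normalised counts), Adipoq (438) and the mean log2 level of the fat list (9.50). Heterozygote library 2 had the lowest Ppl (17874) and the lowest Far2 (97.4). Homozygote library 4 had the lowest Krt17 of its group (338), and homozygote library 2 the lowest Xist (1.66).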

How the results depend on the processing

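None of the 3249 called genes had a difference of opposite sign under an alternative in which it was tested, and up to 100 of them were not tested (a filter of at least 10 in at least 4 libraries). The 3249 called genes (1602 higher, 1647 lower) became 1544 (727 and 817) with the 8 libraries fitted alone, 2060 (1030 and 1030) with striated muscle level as a covariate and 907 (515 and 392) with a 2-fold threshold. Leaving out 1 library gave 2134 to 3314 genes, 1025 to 1663 higher and 1067 to 1659 lower. With a replicate block 3104 were called (1542 higher, 1562 lower), 2879 of them among the 3249. The labels number the libraries, and the correlations of same-numbered deviations were 0.0174, 0.0292, -0.00417 and 0.00555. With 4 libraries in a group, such correlations cannot decide whether the numbers pair the libraries. limma-voom called 2312, and leaving out heterozygote library 3 and homozygote library 4 together, chosen after seeing the data, 2480. With another offset, without the filter and with the block, KEAP1 loss against wild type ranged from 9178 to 9361 genes and pups from 8060 to 8339. Foxe1, which was not called (-0.10), lay between -0.26 and 0.029 when 1 library was left out, and changed sign without heterozygote library 1 (0.012), without heterozygote library 3 (0.029) and without heterozygote library 3 and homozygote library 4 together (0.11). Of 163 named or listed genes tested under up to 28 alternatives, a 2-fold threshold not among them, 144 were called, and 71 of these kept the call in all. The cause of these shifts was not tested. Ddx3y as a covariate was not run, since the gene was read in all 16 adult libraries. Homozygotes have the lowest depth, and with every adult library thinned to the lowest depth 2544 genes were called (1274 higher, 1270 lower).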

Other observations

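Transcription factors of squamous cells were higher in homozygotes in part. Pitx1, a homeobox factor of oral and esophageal epithelium, had 3162, 3211, 3740 and 3924 normalised counts in heterozygotes and 5413, 4895, 4781 and 5288 in homozygotes, a rise of 0.54 (SE 0.08, limma adjusted p = 0.00047). Gata3 rose by 0.83 (adjusted p = 0.0109). Neither gene's groups overlapped. Of 17 measured factors 5 were called higher (Pitx1, Gata3, Foxn1 and Zfp750 among them) and none lower, with a median of 0.27, and the count was 3 without heterozygote library 1 or homozygote library 1. The list's median difference from wild type was -0.36 in heterozygotes, with 0 genes called higher and 7 lower, and -0.20 in homozygotes. Its mean log2 level was 10.4 to 10.6 in wild type, 9.99 to 10.3 in heterozygotes and 10.3 to 10.5 in homozygotes. These comparisons share libraries with the one between the L30F groups.

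Aldh1l2, a mitochondrial folate enzyme, rose by 0.81 (adjusted p = 0.00142), and Vldlr, a lipoprotein receptor counted with the ATF4 response, fell by 0.80 (adjusted p = 0.000431). Both calls held under every alternative tried, apart from a 2-fold threshold. Of 17 measured genes of that response 5 were called higher (Aldh1l2, Asns, Phgdh, Psph and Shmt2) and 3 lower (Vldlr, Nupr1 and Slc7a3), with a median of 0.32, which was 0.21 without heterozygote library 4 and 0.20 without homozygote library 1. The higher genes numbered 3 without heterozygote library 2 or 3 or homozygote library 1 or 2, and 2 without heterozygote library 4. Uox, the urate oxidase, was at 4.87, 14.3, 0 and 2.96 normalised counts in heterozygotes, 50.5, 38.1, 365 and 17.4 in homozygotes and 3180 on average with KEAP1 loss. Its call (adjusted p = 0.0066) ended with the 8 libraries fitted alone (adjusted p = 0.0573) and with limma-voom (adjusted p = 0.0688).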
